A study of Mus musculus and Rattus norvegicus with 24 samples.

Results

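The genes described here make the proteins that carry metabolites across the mitochondrial membranes and that bring new proteins into the organelle. They were chosen by name: every listed gene whose symbol begins with Slc25a, Timm, Tomm or Vdac. That gave 59 of the 9595 genes in the count table, 32 of them Slc25a carriers, 3 Vdac porins and 24 Timm or Tomm genes of the import machinery, Tomm6os (an antisense transcript) included. Slc25a28 and Slc25a44 had no count in any cell.

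RNA was sequenced from single cells, labelled as cardiomyocytes, in 3 groups of 8. Transplanted cells were cardiomyocytes made from a mouse embryonic stem cell line carrying Isl1-Cre, Rosa-RFP and aMHC-GFP. They were injected into a neonatal rat heart and isolated from it after 30 days in vivo. Adult cells were wild-type ventricular cardiomyocytes of adult rats, and cultured cells were the same mouse line's cardiomyocytes after 30 days in vitro. The title of the study sets out a question of maturation after neonatal transplantation. Both mouse groups come from a single line, with GFP under a cardiac myosin promoter and Cre expressed in Isl1-positive cells. The host's strain, the number of animals and the number of cultures are not stated, so each group counted as 1 sample and no test between groups was made. The mouse build is named for the rat cells too, so for any difference between adult cells and a mouse group, species and group cannot be told apart. A transplanted cell was also isolated from among rat cells. Some cells were taken with a flow sorter and others by hand under a microscope, which is not stated per cell.

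In a working heart, ATP made in the mitochondrial matrix leaves through adenine nucleotide carriers of the inner membrane in exchange for ADP, while phosphate enters through its own carrier. Both pass the outer membrane through the Vdac porins, which dock hexokinase and face the mitochondrial creatine kinase. The carriers and most other mitochondrial proteins are made in the cytosol, pass the Tomm complex of the outer membrane, and are sorted by small Timm chaperones and the inner membrane translocases built on Timm22 or on Timm23 and Timm17.

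Slc25a4, Slc25a5 and Slc25a3 held most of the counts of the 59 genes in transplanted and adult cells, and Slc25a31, a paralog of the first pair, was found in a single cultured cell, so the regions around the start sites of these 4 genes are shown. Slc25a4 makes the form typical of heart and skeletal muscle, Slc25a5 the form common in dividing cells, and Slc25a31 a form of germ cells and embryonic stem cells. Slc25a3 makes the phosphate carrier. Each sequence runs 5′ to 3′ over 300 bases, from 250 bases before to 50 bases after a RefSeq start on GRCm38.p6. Slc25a4 spans chr8:46211013-46211312 on the minus strand, Slc25a5 chrX:36795347-36795646 on the plus strand, Slc25a31 chr3:40708621-40708920 on the plus strand, and Slc25a3 chr10:91123918-91124217 on the minus strand. Capitals mark motifs that were searched for on both strands. One is the core of the TATA box, TATAA, and another the box that NF-Y binds, CCAAT. The GC box bound by Sp1 was searched as GGGCGG. The core that ETS factors bind was searched as CCGGAAG. The core bound by NRF1, a regulator of nuclear genes for mitochondria, was searched as GCGC, then any base, then TGCGC. A GC box on the opposite strand reads CCGCCC, and no marked motifs overlap.
Slc25a4: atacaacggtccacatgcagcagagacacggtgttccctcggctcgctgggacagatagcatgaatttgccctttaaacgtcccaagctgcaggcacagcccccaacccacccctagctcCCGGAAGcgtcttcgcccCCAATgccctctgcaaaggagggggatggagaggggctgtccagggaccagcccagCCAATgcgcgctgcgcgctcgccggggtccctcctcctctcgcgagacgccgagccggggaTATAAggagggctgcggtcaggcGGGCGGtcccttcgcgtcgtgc
Slc25a5: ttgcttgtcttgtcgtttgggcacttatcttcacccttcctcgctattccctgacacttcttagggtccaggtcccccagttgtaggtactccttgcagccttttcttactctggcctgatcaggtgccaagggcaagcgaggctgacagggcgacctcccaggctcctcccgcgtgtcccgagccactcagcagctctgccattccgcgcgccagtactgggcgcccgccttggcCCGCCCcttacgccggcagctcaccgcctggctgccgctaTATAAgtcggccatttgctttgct
Slc25a31: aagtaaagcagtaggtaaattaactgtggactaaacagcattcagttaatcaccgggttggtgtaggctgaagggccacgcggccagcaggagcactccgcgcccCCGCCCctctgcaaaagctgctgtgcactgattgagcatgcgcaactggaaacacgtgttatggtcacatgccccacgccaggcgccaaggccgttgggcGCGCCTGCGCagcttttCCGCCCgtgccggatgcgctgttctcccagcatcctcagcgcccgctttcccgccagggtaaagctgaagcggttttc
Slc25a3: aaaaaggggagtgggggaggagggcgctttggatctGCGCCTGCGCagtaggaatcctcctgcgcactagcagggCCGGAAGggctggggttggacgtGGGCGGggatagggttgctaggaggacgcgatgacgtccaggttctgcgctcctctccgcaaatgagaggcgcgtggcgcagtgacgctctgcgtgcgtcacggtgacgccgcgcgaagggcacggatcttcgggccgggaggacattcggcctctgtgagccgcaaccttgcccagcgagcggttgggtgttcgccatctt

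Counting the annotated start as base 1, the TATAA of Slc25a4 lay at bases 6 to 10 and that of Slc25a5 at bases 27 to 31, so in both the letters stood after the start that RefSeq gives. The GENCODE annotation starts Slc25a5 at chrX:36795651, past the end of the window shown, so its TATAA stands before that start. It starts Slc25a4 at chr8:46211284, before the RefSeq start, so that TATAA follows both. Neither the Slc25a31 window nor the Slc25a3 window held TATAA, and each held a copy of the NRF1 core. Over the 57 promoters that the table holds for 46 of the 59 genes, 70.2% carried GGGCGG and 24.6% carried CCGGAAG, against 35.7% and 8.86% of all 32851 mouse promoters in it. TATAA was present in 10.5% of them, against 24.9% of all promoters, and the NRF1 core in 7.02%, against 4.60%. The nuclear receptor site AAGGTCA stood in 8.77%, against 4.72%, and the MEF2 core TAAAAATA in 1.75%, against 2.72%. CCAAT was in 36.8%, against 37.4%. These windows were also richer in G and C, with a median of 60.0%, against 52.7% for all promoters, and a match to letters is not a bound site.

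Slc25a4 and Slc25a5 are close in sequence, and how reads were placed between them was not tested. Their longest open reading frames, 897 bases each, were 77.5% identical, and the longest run that both shared was 20 bases, at positions 322 to 341 of each frame: cagttctggcgctactttgc. Slc25a31 was 62.1% identical to Slc25a4, and the Vdac pairs were 64.6% to 69.3% identical. These are mouse sequences, and how rat reads were divided between these paralogs was not tested.

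The libraries differed in depth and make-up before any gene was compared. The total count per cell was 88796 to 344224 in transplanted cells, 108546 to 223744 in adult cells and 16099 to 60789 in cultured cells. A list of 19 cardiomyocyte markers held 18.5% to 25.03% of the counts of each transplanted cell, 19.3% to 24.8% of each adult cell and from 0.00837% to 17.6% of each cultured cell. Cultured cells F, G and H were at 0.742%, 0.0883% and 0.00837%, and the shares of G and H go against their label. G and H had no count of the markers Actc1 and Tnnt2. Tnnt2 was also at 0 in cultured cells B, E and F, and Actc1 in D. In cultured cells B, C, D and E all 19 markers held 4.76%, 17.55%, 11.76% and 8.715%. Most of that was Ttn, which alone held 4.42%, 15.08%, 10.22% and 7.79% of their counts. Ttn held at most 0.728% of the counts of any transplanted cell and 0.865% of any adult cell. All 19 markers were listed, 16 had counts in transplanted cells, 16 in adult cells and 17 in cultured cells, with Myl4, Myl7 and Tbx5 at 0 in the transplanted and adult groups and Nkx2-5 and Mybpc3 at 0 in the cultured group. Of the marker lists of other cells, 8 of 11 fibroblast genes, 5 of 10 endothelial, 6 of 7 smooth muscle and pericyte, 3 of 10 leukocyte and 3 of 8 pluripotent cell genes were analysed. Each list held at most 0.0844% of a group's counts, the fibroblast list in cultured cells being the highest. In single cells the fibroblast list held 0.209% in cultured cell H (50 counts), 0.189% in F (35 counts) and 0 in G. In cell H it thus held more than the cardiomyocyte list, which had 2 counts there. Rpph1, a non-coding RNA of RNase P, held none of the transplanted counts, 0.000315% of the adult counts and 2.84% of the cultured counts. Leaving out Ttn, the gene of the median count had 2053.5 exon bases in the middle transplanted cell, 2063 in the middle adult cell and 5742.5 in the middle cultured cell, while the 59 genes have a median of 3677 and all matched genes 4566. The part of depth, marker content and exon length in the differences from cultured cells was not tested.

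The 59 genes took 3.18% of all counts in transplanted cells, 3.06% in adult cells and 0.461% in cultured cells, with exact 95% binomial intervals of 3.15% to 3.21%, 3.03% to 3.09% and 0.432% to 0.491%. Intervals here and below cover counting error only and treat each read as a separate count. The reads carry no stated molecular identifiers, so the intervals leave out error from copying of transcripts as well as differences between cells. Among single cells the share had a lowest, median and highest value of 2.59%, 3.24% and 4.95% in transplanted cells. It had 2.31%, 2.92% and 4.20% in adult cells and 0.0825%, 0.263% and 1.49% in cultured cells. Every transplanted and every adult cell was above every cultured cell, and the transplanted and adult ranges overlapped. The carriers held 2.61% of transplanted, 2.39% of adult and 0.186% of cultured counts, which is most of the share in transplanted and adult cells. Import genes held 0.399%, 0.546% and 0.228% in the same order of groups, more than the carriers in cultured cells, and porins 0.168%, 0.120% and 0.0471%. Without cultured cell G the cultured share was 0.334% for all 59 genes and 0.149% each for carriers and import genes. Without Slc25a3, Slc25a4 and Slc25a5, the other genes held 0.622% of transplanted, 0.736% of adult and 0.398% of cultured counts, so the gap to cultured cells was mainly that of these 3 carriers.

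**Figure D1:**
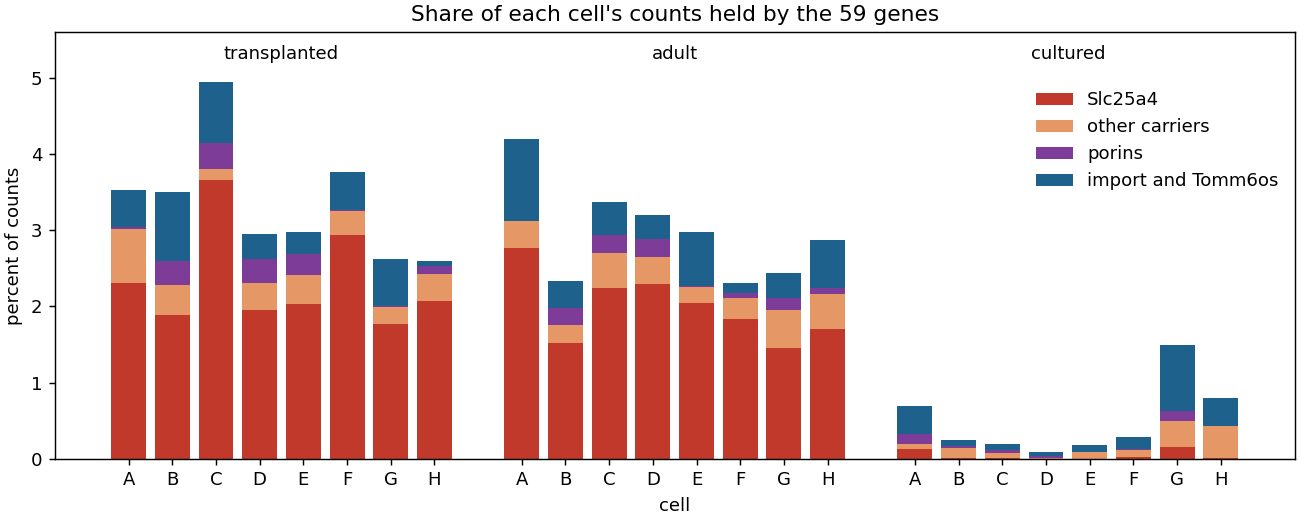
Percent of each cell's counts held by the 59 genes, with cells A to H of each group on the x axis and stacked bars for Slc25a4, the other carriers, the porins and the import genes. Slc25a4 fills most of each bar in transplanted and adult cells, and the highest cultured cell, G, reached 1.49%.

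Slc25a4 had 17733, 20543 and 36646 CPM (counts per 1000000 counts of the listed genes) in the lowest, median and highest transplanted cell. It had 14543, 19389 and 27639 CPM in adult cells and 0, 104 and 1589 CPM in cultured cells. It was counted in 8 of 8 transplanted and 8 of 8 adult cells and in 6 of 8 cultured cells, and no cultured cell came near the other ranges. Within the transplanted group the highest cell was 2.07 times the lowest, and within the adult group 1.90 times. Over the group sums Slc25a4 took rank 7 of the 9595 genes in transplanted cells, rank 6 in adult cells and rank 512 in cultured cells. The ratio of transplanted to cultured cells was 61.8 (49.3 to 78.6), and that of adult to cultured cells 55.6 (44.3 to 70.7). Cultured cell G held 48.0% of the group's 75 counts, and without it these ratios were 106 and 95.1. Transplanted and adult cells differed by 1.11 times (1.09 to 1.13), less than the spread between cells of either group.

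Slc25a5 had 0, 965 and 2473 CPM in the lowest, median and highest transplanted cell, 399.6, 1306 and 3229 CPM in adult cells, and 0, 0 and 1853 CPM in cultured cells. The ranges of all groups overlapped, and cultured cell G held 79.2% of the cultured counts of this gene. The transplanted sum was 3.60 times the cultured one (2.73 to 4.83), and 15.4 times without cell G. The adult sum was 6.67 times the cultured one (5.08 to 8.93), and 28.6 times without cell G. Transplanted cells were 1.85-fold lower than adult cells (1.73 to 1.99), short of the 2-fold limit used here for a call. Leaving out transplanted cell A or E, or adult cell E or H, made it 2.02-fold to 2.63-fold lower, which makes it a call. Slc25a4 made up 96.1% of the Slc25a4 and Slc25a5 counts in transplanted cells, 92.2% in adult cells and 58.6% in cultured cells. Divided by exon length, that was 94.5%, 89.2% and 49.8%. In single cells with at least 10 counts of the pair it ran from 89.2% to 100.0% in 8 transplanted cells, from 81.8% to 98.1% in 8 adult cells and from 9.09% to 100.0% in 4 cultured cells.

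Slc25a31, named after its values were seen, went another way. It had 102 counts, all in cultured cell H, where it stood at 4270 CPM, and no count in any other of the 24 cells. Cell H had the lowest cardiomyocyte marker share of all, and 1 count of Slc25a4. Against a floor of 3 counts over the group, Slc25a31 was at least 215-fold lower in transplanted than in cultured cells and at least 209.7-fold lower in adult than in cultured cells. Both calls end without cell H. Per kilobase of exon it took rank 2 of the 59 genes in cultured cells, at 233 CPM per kilobase, with an interval of 189.6 to 282 that overlaps those of Slc25a5 at 156 (117 to 204) and Slc25a4 at 155 (122 to 194).

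Slc25a3, the phosphate carrier, had 0, 2010 and 3522 CPM in the lowest, median and highest transplanted cell, with counts in 7 of 8. It had 73.7, 1037 and 3536 CPM in adult cells, and in cultured cells 0, 0 and 62.1 CPM from 2 counts in all. Transplanted cell C, the cell without a count, had the highest Slc25a4 level of all. The ratio of transplanted to cultured cells was 226 (62.5 to 1867), and that of adult to cultured cells 131 (36.3 to 1084), each resting on 2 cultured counts. Without cultured cell A or E, which held 1 count each, the first ratio was 408.5 or 417 and the second 237 or 242, and the second was 84.7 without adult cell H. Transplanted cells were 1.72 times adult cells (1.62 to 1.83), and 2.67 times without adult cell H, which makes it a call.

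Slc25a11 makes the oxoglutarate carrier of the malate-aspartate shuttle, which brings reducing equivalents into the matrix. It had 0, 329 and 1613 CPM in the lowest, median and highest transplanted cell, 0, 0 and 1456 CPM in adult cells and 0, 0 and 202 CPM in cultured cells. It was counted in 6 transplanted, 3 adult and 2 cultured cells, so the groups overlapped at 0. The transplanted sum was 18.1 times the cultured one (7.70 to 55.9), and 81.7 times without cultured cell A. The adult sum was 13.8 times the cultured one (5.87 to 42.8), 62.4 times without cultured cell A and 8.74 times without adult cell G. Transplanted and adult cells differed by 1.31 times (1.15 to 1.49), and by 2.07 times without adult cell G.

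The remaining carriers with counts were scarce, and many were found in 1 group alone. Slc25a12 and Slc25a13, the aspartate-glutamate carriers of the same shuttle, had 38 and 44 counts in transplanted cells, 82 and 34 in adult cells and 1 each in cultured cells. Slc25a20, the carnitine-acylcarnitine carrier that admits long-chain fatty acids, had 1 count in transplanted cells, 131 counts in 2 adult cells and 9 counts in 2 cultured cells. It was 134-fold lower in transplanted than in adult cells (23.7 to 5342), a call that no single cell ended, although it was at least 40.5-fold lower without transplanted cell B and 62.2-fold lower without adult cell A. Slc25a26, the S-adenosylmethionine carrier, had 105 counts in 4 adult cells and none elsewhere, so it was at least 35.9-fold lower in transplanted than in adult cells, and at least 23.5-fold lower without adult cell C. Slc25a39, a glutathione carrier, had 3 counts in transplanted, 81 in adult and 2 in cultured cells.

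Counts found in cultured cells alone made up the largest group of such carriers. They covered 12 carriers, from 1 count of Slc25a14 and of Slc25a37 (mitoferrin, an iron carrier) to the 102 of Slc25a31. This is no trait of carriers alone, because 7310 of all 9595 genes had counts in cultured cells. In transplanted cells 3129 genes had counts, and in adult cells 3651. Slc25a51, an NAD carrier, had 25 counts in 2 cultured cells, and Slc25a15, the ornithine carrier, had 5 in 2, while the other 10 were each found in 1 cell. Slc25a16 (53 counts in 1 cell) and Slc25a40 (5 counts in 1 cell) were found in transplanted cells alone. Slc25a22, a glutamate carrier, Slc25a33, a pyrimidine nucleotide carrier, and Slc25a42, a coenzyme A carrier, had 4, 3 and 1 counts, in adult cells alone. Slc25a34 and Slc25a35 were found in transplanted and adult cells, at 11 and 1 counts in transplanted and 2 and 2 in adult cells. Slc25a46 had 19 counts in adult and 17 in cultured cells.

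The 3 porins differed from one another. Vdac2, the form best known for holding the cell death protein Bak, had 0, 914 and 3345 CPM in the lowest, median and highest transplanted cell, 0, 149 and 1979 CPM in adult cells and 0, 61.2 and 505 CPM in cultured cells. Its transplanted sum was 12.5 times the cultured one (8.04 to 20.5) and its adult sum 5.38 times (3.46 to 8.87), calls that no single cell ended. Without cultured cell A these were 22.5 and 9.73 times, and the second was 3.32 times without adult cell D. Transplanted cells were 2.32 times adult cells (2.11 to 2.54), but 1.83 times without transplanted cell D, 1.91 times without adult cell A, and 3.75 times without adult cell D.

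Vdac1, the most studied porin and a dock for hexokinase, had 0, 0 and 2013 CPM in the lowest, median and highest transplanted cell, 0, 334 and 1946 CPM in adult cells and 0, 30.2 and 485 CPM in cultured cells. Transplanted cell B held 66.1% of the transplanted counts. The transplanted sum was 1.71 times the cultured one (1.21 to 2.49), 2.16 times without transplanted cell H, 3.01 times without cultured cell B, 2.22 times without cultured cell G and 0.640 times without transplanted cell B. The adult sum was 2.46 times the cultured one (1.75 to 3.57), 1.54 times without adult cell B and 4.34 times without cultured cell B. Transplanted cells were 1.44-fold lower than adult cells (1.26 to 1.65), and 3.85-fold lower without transplanted cell B. Without adult cell B the same ratio was 1.11 the other way.

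Vdac3 had 0, 159 and 577 CPM in the lowest, median and highest transplanted cell, 0, 199 and 634 CPM in adult cells and 0, 98.7 and 750 CPM in cultured cells. Its groups overlapped over nearly their whole range and none of its 3 ratios passed 2-fold: 0.882 (0.633 to 1.26) for transplanted over cultured, 1.28 (0.925 to 1.81) for adult over cultured, and 0.690 (0.581 to 0.818) for transplanted over adult cells. The first is 1.67 under TMM scaling and 1.03 under DESeq2 size factors, and the last is 0.420 without transplanted cell E. Of all porin counts, Vdac2 made up 72.0% in transplanted, 43.5% in adult and 20.6% in cultured cells. Vdac1 made up 17.3%, 34.8% and 36.1% in the same order of groups, and Vdac3 10.7%, 21.7% and 43.3%. The Vdac1 share was 7.10% without transplanted cell B and 18.7% without cultured cell B, and without adult cell B it lay just below the adult Vdac3 share of 24.6%. Per exon length, Vdac2 was the leading porin in transplanted cells at 63.8%, and without any 1 cell it stayed between 55.5% and 78.6%. Vdac1 led per exon length in adult cells at 50.3% and in cultured cells at 52.8%, but each lead rested on 1 cell. Without adult cell B, Vdac2 led at 44.1%, with Vdac1 at 37.4%, and without cultured cell B, Vdac3 led at 44.2%, with Vdac1 at 31.2%.

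**Figure D2:**
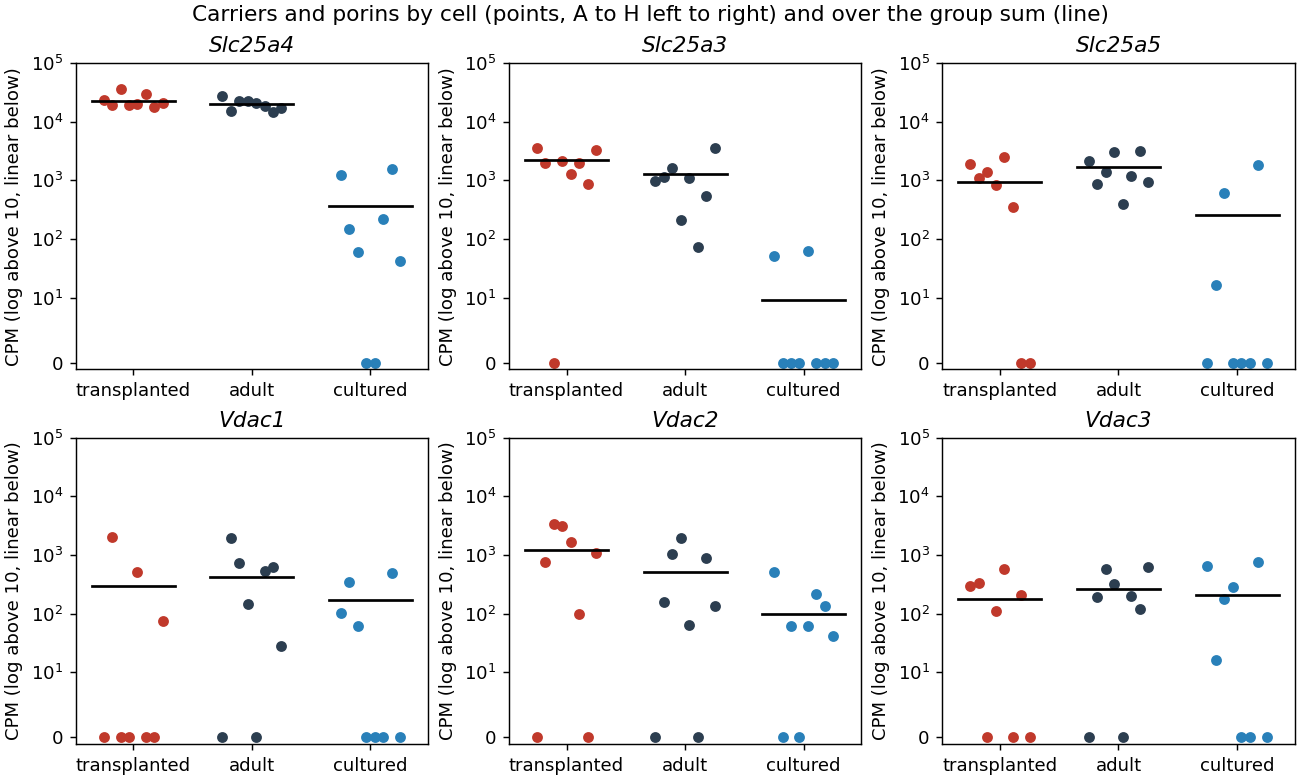
CPM in each cell (points, cells A to H from left to right) and over the group's summed counts (line) for 3 carriers and 3 porins, on an axis that is logarithmic above 10 and linear below. Slc25a4 is the gene whose transplanted and adult points, all from 14543 CPM up, lie clear of every cultured point, and Vdac3 overlaps in all groups.

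Among the small subunits that steady the outer membrane pore, Tomm7 was the most widely found. It had 0, 499 and 1478 CPM in the lowest, median and highest transplanted cell, 0, 445 and 1627 CPM in adult cells and 0, 32.9 and 920.1 CPM in cultured cells. Its transplanted sum was 2.67 times the cultured one (1.91 to 3.82) and its adult sum 3.80 times (2.74 to 5.43), and without cultured cell F these were 4.49 and 6.40 times. Transplanted cells were 1.43-fold lower than adult cells (1.29 to 1.58). Tomm5 had 0, 59.9 and 886 CPM in transplanted cells, 0, 110.0 and 1908 CPM in adult cells and 0, 0 and 404 CPM in cultured cells, where all 8 counts were in cell A. Its transplanted sum was 5.38 times the cultured one (2.69 to 12.6) and its adult sum 12.5 times (6.30 to 29.1). Without cultured cell A these were at least 13.0 and 30.1 times, without transplanted cell B the first was 3.54 times, and without adult cell A the second was 4.65 times. Transplanted cells were 2.32-fold lower than adult cells (2.01 to 2.69), 3.52-fold lower without transplanted cell B, 1.71-fold lower without transplanted cell H and 1.16 times higher without adult cell A.

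Tomm6 had 0, 0 and 1328 CPM in transplanted cells, 0, 29.6 and 700.2 CPM in adult cells and 0, 25.2 and 838 CPM in cultured cells, and the groups overlapped. Its ratios were 1.34 (0.912 to 2.02) for transplanted over cultured, 1.04 (0.708 to 1.59) for adult over cultured and 1.28 (1.06 to 1.55) for transplanted over adult cells. Without transplanted cell F, which held 79.5% of the transplanted counts, the first was 3.22-fold lower and the last 3.36-fold lower. Without cultured cell G the first was 3.24 and the second 2.53, and the second is 0.909 when Rn45s, Rpph1 and Ttn leave the totals. Tomm6 shares 219 exon bases with Tomm6os on the other strand, and Tomm6 had counts in 6 of the 7 cells with Tomm6os counts. Since the strand setting is not given, reads within that shared stretch cannot be assigned to either gene. Tomm6 also shares 859 exon bases on the same strand with Gm21981, which the count table does not list. Other overlaps include Tomm40l with Nr1i3 (3304 exon bases) and Slc25a35 with Rangrf (1151), both on the other strand. Timm10b shares 376 with Gm45799 on the same strand. The effect of these overlaps on the counts was not tested.

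The receptors of the outer membrane were found in few cells. Tomm20 had 90 counts in 1 transplanted cell, 2 counts in adult cells and 36 counts in 1 cultured cell. Tomm22 had 78 counts in 1 transplanted cell, 1 count in adult cells and none in cultured cells. Tomm70a, the receptor that carrier proteins use, had 1 count in transplanted cells, 120 in 3 adult cells and 15 in 3 cultured cells, and was 123-fold lower in transplanted than in adult cells (21.6 to 4897). That call held without any 1 cell, at 37.8-fold or more without transplanted cell G and 39.5-fold without adult cell B. Tomm40l, a relative of the pore protein, had 72 counts in 3 adult cells and none elsewhere, and Tomm34, a cytosolic helper, had 36 counts in 1 cultured cell and none elsewhere. Tomm20l had 17, 12 and 7 counts in transplanted, adult and cultured cells. It shares 49 exon bases with Timm9 on the other strand, and each of the 4 cells with Tomm20l counts also had Timm9 counts.

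Timm8b, a small chaperone of the intermembrane space, was the most abundant import gene per kilobase of exon in each group, at 2098 CPM per kilobase in transplanted, 1719 in adult and 946 in cultured cells. It had 0, 1075 and 4313 CPM in the lowest, median and highest transplanted cell, 0, 546 and 2850.0 CPM in adult cells and 0, 0 and 3265 CPM in cultured cells. Cultured cell G held 73.3% of the cultured counts. The transplanted sum was 2.22 times the cultured one (1.81 to 2.74), 1.56 to 1.96 times without transplanted cell C or without cultured cell B, D or H, and 7.39 times without cultured cell G. It was 1.93 times when Rn45s, Rpph1 and Ttn leave the totals, which ends the call. The adult sum was 1.82 times (1.48 to 2.25), 1.02 times without adult cell H, 2.07 to 2.15 times without adult cell A or D or cultured cell A, and 6.05 times without cultured cell G. Transplanted cells were 1.22 times adult cells (1.13 to 1.32), and 2.17 times without adult cell H.

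Timm13, which pairs with a Timm8 protein, had 0, 0 and 629 CPM in transplanted cells, 0, 246 and 1448 CPM in adult cells and 0, 0 and 1800.0 CPM in cultured cells, where all 43 counts were in cell H. Transplanted cells were 4.04-fold lower than adult cells (3.42 to 4.79), a call no single cell ended, and 2.61-fold lower without adult cell A. Against cultured cells, transplanted cells were 1.54-fold lower (1.08 to 2.17), and 2.04-fold to 2.22-fold lower without transplanted cell D or G or cultured cell B. They were 1.22 times higher under TMM scaling and at least 8.21 times higher without cultured cell H. Adult cells were 2.62 times cultured cells (1.92 to 3.65), 1.69 times without adult cell A, 1.84 times without cultured cell B and at least 33.2 times without cultured cell H.

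Timm10 and Timm10b, which escort carrier proteins to the inner membrane, had no count in cultured cells. Timm10 had 134 counts in transplanted cells, all in cell D at 857 CPM, and 0, 73.4 and 1030.0 CPM in the lowest, median and highest adult cell. Timm10b had 0, 102 and 979 CPM in transplanted cells and 0, 4.23 and 786 CPM in adult cells, where cell H held 87.8% of the counts. Against the cultured floor of 14.6 CPM, Timm10 was at least 7.07-fold higher in transplanted cells and at least 19.6-fold higher in adult cells. The first bound vanishes without transplanted cell D, and the second is 11.6 without adult cell G. Timm10b was at least 19.4-fold higher in transplanted cells than in cultured cells and at least 10.2-fold higher in adult cells, or at least 1.49-fold without adult cell H. Transplanted cells were 2.77-fold lower than adult cells in Timm10 (2.26 to 3.40), at least 109-fold lower without transplanted cell D and 1.64-fold lower without adult cell G. In Timm10b they were 1.90 times adult cells (1.59 to 2.27), 2.03 to 2.58 times without transplanted cell B, C, D or H, and 13.0 times without adult cell H. Timm9, the partner of Timm10, had 89 counts in 1 transplanted cell, 31 in 2 adult cells and 37 in 2 cultured cells.

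The inner membrane translocases were led by Timm17a, a pore subunit for proteins with a presequence. It had 0, 785 and 2827 CPM in the lowest, median and highest transplanted cell, 0, 444 and 2904 CPM in adult cells and 0, 8.22 and 555 CPM in cultured cells. Its transplanted sum was 8.51 times the cultured one (5.42 to 14.2) and its adult sum 7.51 times (4.78 to 12.5), calls that no single cell ended. Without cultured cell A these were 18.3 and 16.1 times, and the second was 4.21 times without adult cell D. Transplanted and adult cells differed by 1.13 times (1.04 to 1.24), and by 2.02 times without adult cell D. Its paralog Timm17b had no count in transplanted cells, 158 counts in 1 adult cell and 38 counts in 3 cultured cells. Timm23, the partner of both, had 61, 119 and 6 counts in 4 transplanted, 6 adult and 1 cultured cells.

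Timm22, the core of the translocase that inserts the carriers themselves, had no count in cultured cells. It had 0, 5.63 and 725 CPM in the lowest, median and highest transplanted cell, whereas all 727 adult counts were in cell A, at 3249 CPM. Transplanted cells were at least 11.3-fold higher than cultured cells, and at least 7.29-fold without transplanted cell B. Transplanted cells were 3.46-fold lower than adult cells (2.97 to 4.05), 5.39-fold lower without transplanted cell B, and at least 57.6 times higher without adult cell A. Adult cells were at least 39.3-fold higher than cultured cells, a call that ends without adult cell A. Timm44, which tethers the import motor to the inner membrane, likewise had no cultured count, and all 269 transplanted counts were in cell B at 2166 CPM. It had 0, 27.7 and 2293 CPM in adult cells. Transplanted cells were at least 14.2-fold higher than cultured cells, a call that ends without transplanted cell B, and adult cells at least 34.0-fold higher, or at least 7.67-fold without adult cell A. Transplanted cells were 2.40-fold lower than adult cells (2.08 to 2.78), at least 195-fold lower without transplanted cell B, 1.77-fold lower without transplanted cell H and 1.85 times higher without adult cell A. Of the remaining genes, Timm50, the presequence receptor, had 1 count in each group, Timm21 had 25 counts in cultured cells alone, and Timm8a1 (24) and the complex I assembly factor Timmdc1 (20) had counts in adult cells alone.

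**Figure D3:**
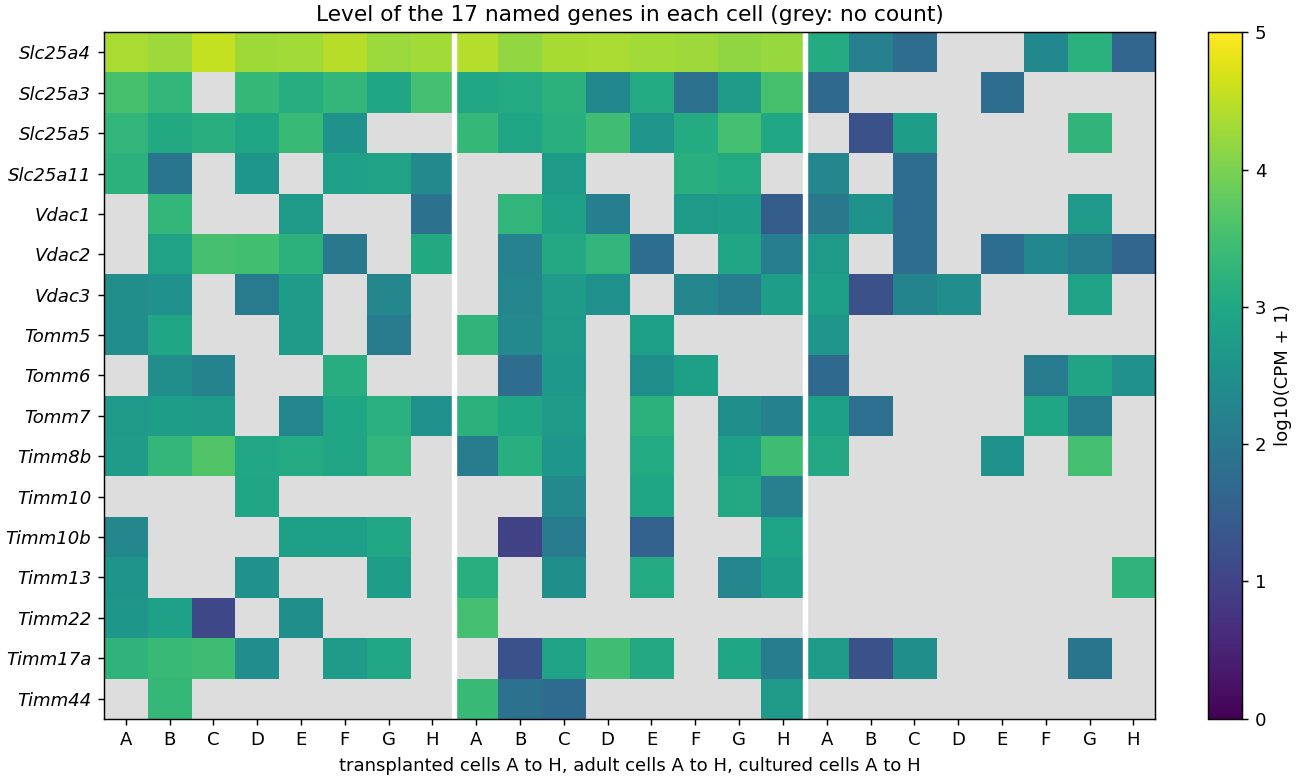
Level of 17 genes in each cell as log10(CPM + 1), with genes down the y axis, cells A to H of the transplanted, adult and cultured groups from left to right, and grey for no count. Slc25a4 is filled in 8 of 8 transplanted and 8 of 8 adult cells, whereas Timm44 shows a single transplanted cell, B, and Timm22 a single adult cell, A.

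**Figure D4:**
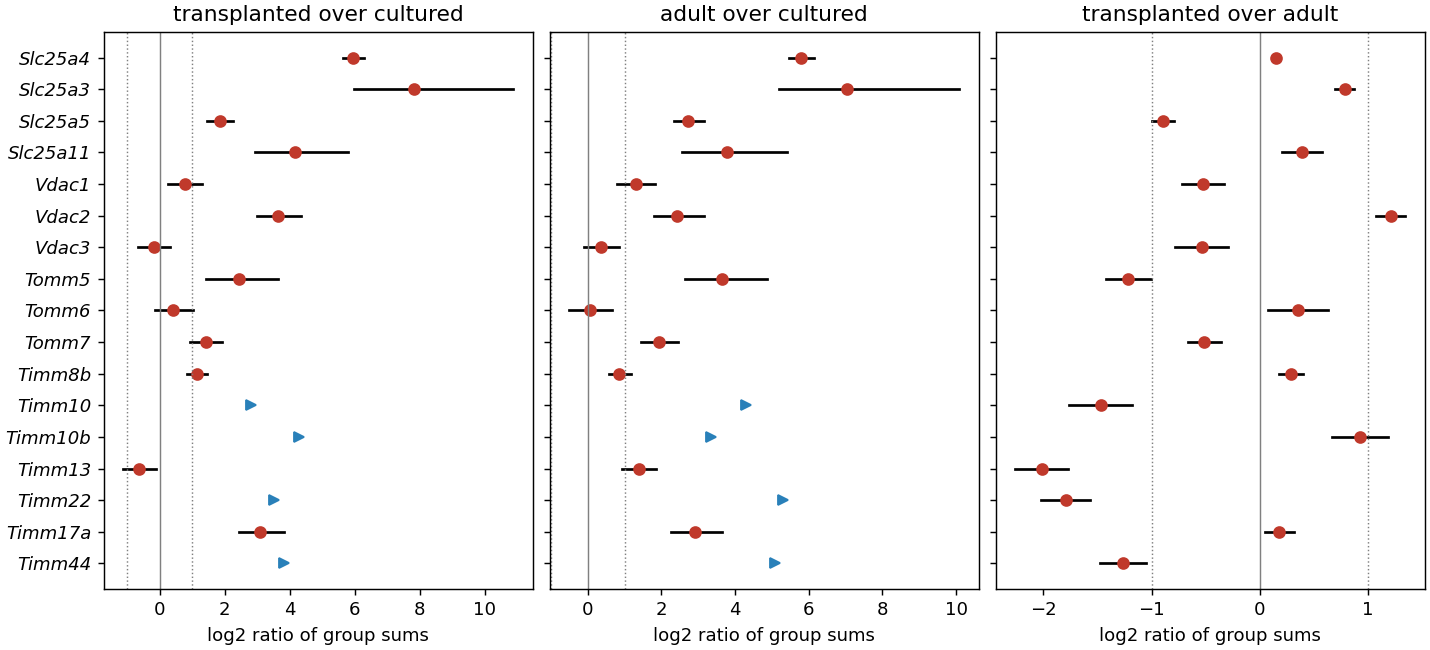
Log2 ratio of summed CPM for the same 17 genes in 3 comparisons, with points for ratios, bars for exact 95% counting intervals, triangles for lower bounds against a group with no count, and dotted lines at 2-fold. Bars over 2 cultured counts, as for Slc25a3, are the widest, and Slc25a4 lies close to 0 between transplanted and adult cells. All 17 genes were chosen for their level and reached it in transplanted or adult cells, and the genes mostly lower there than in cultured cells are not drawn.

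A gene was called where the ratio was at least 2 either way and the 2 groups together had at least 10 counts. Between transplanted and cultured cells 38 of the 59 genes had those counts, and 17 were higher, 14 lower and 7 neither. That is 44.7% higher and 36.8% lower, where over all genes tested 22.5% were higher and 64.0% lower. The median log2 ratio was 0.72 over the 38 genes (0.55 with genes at 0 counts set to their bound) and -5.63 over all genes (-4.53 at their bound). With 1 cell left out, the median of all genes ran from -5.76 to -2.9, the last without cultured cell B. That of the 38 genes was -0.31 without transplanted cell B, so its sign rests on that cell. Of the calls, 10 higher and 4 lower ones held without any 1 cell. These were 58.8% of the higher and 28.6% of the lower calls, where over all genes 39.8% and 32.8% held. The 10 were Slc25a3, Slc25a4, Slc25a5, Slc25a11, Vdac2, Tomm5, Tomm7, Timm10b, Timm17a and Timm22, and Slc25a51, Timm17b and Timm21 were among the 4. By family, carriers had 7 higher and 7 lower of 15, porins 1 higher and none lower of 3, and import genes 9 higher and 7 lower of 20.

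Between adult and cultured cells 40 genes had enough counts, and 21 were higher, 12 lower and 7 neither. These are 52.5% higher and 30.0% lower, where 23.0% of all genes were higher and 62.1% lower. The median log2 ratio was 1.52 (1.27 with genes at their bound), or 1.31 to 2.29 with any 1 cell left out, where that of all genes was -3.85. The median of all genes was -4.04 at their bound, and with 1 cell left out it ran from -5.47 to -2.08. Calls that held without any 1 cell were 13 higher and 3 lower. The 13 were Slc25a3, Slc25a4, Slc25a5, Slc25a11, Slc25a26, Slc25a39, Vdac2, Tomm5, Tomm7, Timm10, Timm17a, Timm23 and Timm44, and Slc25a51 and Timm21 were among the 3. Both comparisons use the same cultured cells. Carriers had 9 higher and 6 lower of 15, porins 2 higher and none lower of 3, and import genes 10 higher and 6 lower of 22.

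Between transplanted and adult cells 36 genes had enough counts, and 6 were higher, 15 lower and 15 neither. That is 16.7% higher and 41.7% lower, where 34.8% of all genes were higher and 44.3% lower, so the share lower was near that of all genes. The median log2 ratio was -0.53, and 0.00 without adult cell A, where that of all genes was -0.37. With 1 cell left out, the median of all genes ran from -0.87 to -0.05. None of the 6 higher calls (Slc25a16, Slc25a34, Vdac2, Timm9, Tomm20 and Tomm22) held without every single cell in turn. Of the lower calls 7 did: Slc25a20, Slc25a26, Slc25a39, Timm8a1, Timm13, Tomm40l and Tomm70a. These 7 were 46.7% of the lower calls, where over all genes 16.3% of higher and 21.7% of lower calls held.

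**Figure D5:**
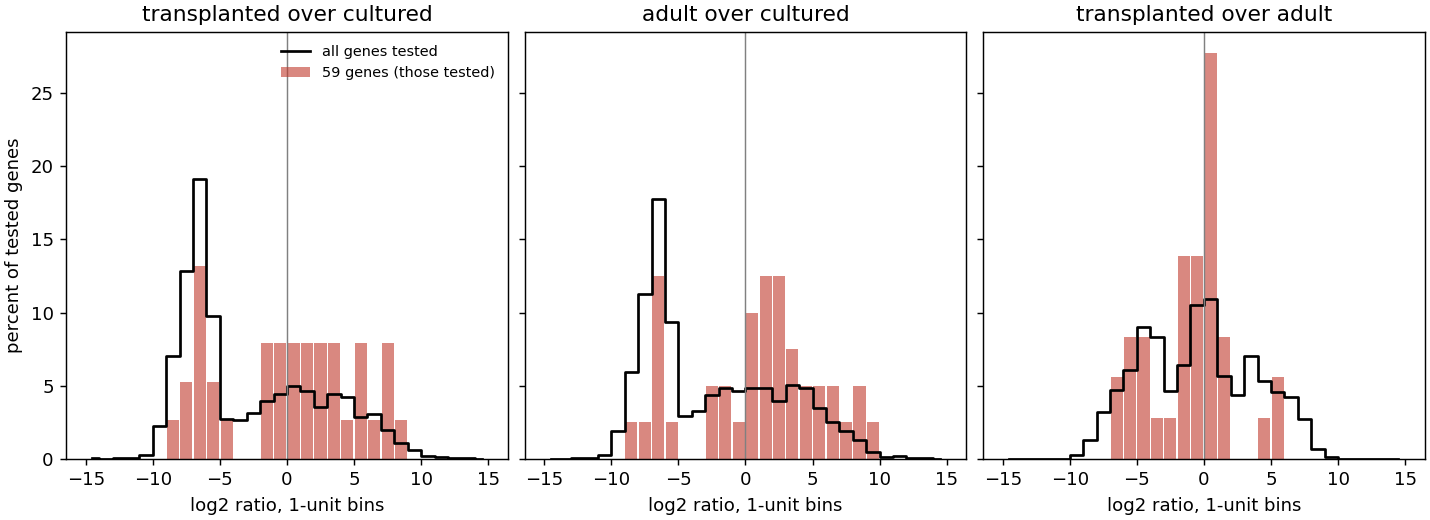
Percent of tested genes (y axis) by log2 ratio in bins of 1 unit (x axis) for 3 comparisons, with bars for those of the 59 genes that had at least 10 counts and a line for all genes tested. The medians are 0.72, 1.52 and -0.53 for the bars, and -5.63, -3.85 and -0.37 for the line.

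Counts of the 59 genes were unevenly spread over cells. Only Slc25a4 was found in all 8 transplanted cells, Slc25a3, Slc25a4 and Slc25a5 were found in all 8 adult cells, and none of the genes was found in all 8 cultured cells. Of the genes found, 14 of 34 were in a single transplanted cell, 10 of 41 in a single adult cell and 20 of 41 in a single cultured cell. Of those with at least 30 counts in the group, 6 of 25, 2 of 28 and 4 of 15 were in a single cell. The like counts over all genes were 702 of 1785, 587 of 1929 and 212 of 1680. Among genes with at least 30 counts in a group, the top cell held a median of 48.3% of a gene's counts in transplanted, 47.8% in adult and 73.3% in cultured cells. Over all genes at that level it held 89.0%, 79.4% and 69.4% in the same order of groups. With every cell thinned to 16099 counts, the depth of the shallowest, the lowest, median and highest cell showed 6, 11.5 and 20 of the genes in the transplanted group. The adult group showed 7, 13.5 and 25 and the cultured group 3, 9.5 and 18, and the ranges overlapped. No cell was left out, and without thinning the medians were 13.0, 16.5 and 9.5. As a share of all genes detected in the thinned cell, the median was 1.89% in transplanted, 1.92% in adult and 0.581% in cultured cells.

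Other genes of the same pathways were listed by function. Of 13 listed genes of the matrix motor and presequence processing, 8 of 11 with enough counts were higher and none lower in transplanted than in cultured cells. In adult over cultured cells the counts were 6 higher and 1 lower of 9, and in transplanted over adult cells 6 higher and 1 lower of 11. Over all genes tested, 22.5% were higher and 64.0% lower in the first of these comparisons, 23.0% and 62.1% in the second and 34.8% and 44.3% in the third. The median log2 ratios were 1.91, 1.85 and 1.20 in these comparisons, and the third was -0.19 without transplanted cell H. Without any 1 cell, 3 of the 8, 5 of the 6 and 1 of the 6 higher calls held, where over all genes 39.8%, 40.3% and 16.3% did. Dnajc15, a motor cochaperone, had 645 CPM in transplanted, 999.6 CPM in adult and 262 CPM in cultured cells, and its transplanted sum was 2.46 times the cultured one, but 0.710 times without transplanted cell F. Romo1, a small inner membrane protein, had 533, 915 and 252 CPM in the same order of groups. Grpel1, the exchange factor of the motor, had 632 CPM in transplanted, 343 CPM in adult and 14.6 CPM in cultured cells, and its ratios to cultured cells were 43.4 (14.8 to 211) and 23.6 (8.01 to 115), or 16.1 without transplanted cell D and 13.7 without adult cell D.

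Of 13 listed genes of outer membrane sorting, intermembrane oxidation and inner membrane insertion, 2 were higher and 3 lower of 8 in transplanted over cultured cells. There were 6 higher and 3 lower of 10 in adult over cultured cells, and 1 higher and 5 lower of 9 in transplanted over adult cells. The background for these counts is 22.5% higher and 64.0% lower, 23.0% and 62.1%, and 34.8% and 44.3% of all genes, so the 5 of 9 lower in the last comparison stand beside 44.3%. Without any 1 cell, 2 higher and 2 lower calls held in the first comparison, 3 and 2 in the second, and 0 and 3 in the third. The shares of higher and lower calls that held over all genes were 39.8% and 32.8%, 40.3% and 32.4%, and 16.3% and 21.7%. The median log2 ratios were -0.04, 1.88 and -2.57. With 1 cell left out they ran from -5.76 without transplanted cell B to 0.94 without cultured cell G, from 1.42 to 3.88, and from -4.13 to -1.38. Mtch2, an outer membrane insertase related to the carriers, had 673 CPM in transplanted and 447 CPM in adult cells and no count in cultured cells, at least 46.3-fold and 30.8-fold higher, and at least 13.7-fold in adult cells without adult cell H. Hspe1, the small partner of the matrix chaperonin, had 213, 408 and 121 CPM in transplanted, adult and cultured cells. Samm50, the core of outer membrane sorting, had 125 CPM in transplanted, 103.0 CPM in adult and none in cultured cells.

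Among 17 listed inner membrane transporters outside these families, 4 were higher and 3 lower of 8 in transplanted over cultured cells, 5 higher and 3 lower of 8 in adult over cultured cells, and 2 higher and 1 lower of 7 in transplanted over adult cells. All genes had 22.5% higher and 64.0% lower in the first of these comparisons, 23.0% and 62.1% in the second and 34.8% and 44.3% in the third. Without any 1 cell, 2 of the 4 and 3 of the 5 higher calls against cultured cells held and none of the lower ones, and 0 of 2 higher and 1 of 1 lower held between transplanted and adult cells. The shares of higher and lower calls that held over all genes were 39.8% and 32.8%, 40.3% and 32.4%, and 16.3% and 21.7%. The median log2 ratios were 1.58, 2.0 and 0.94. With 1 cell left out they ran from 0.70 to 3.15, from 1.51 to 4.65, and from -0.20 without transplanted cell B to 1.16. The pyruvate carrier subunits Mpc2 and Mpc1 had 918 and 213 CPM in transplanted, 477 and 306 CPM in adult and 92.2 and 9.70 CPM in cultured cells. Mpc1 was counted in 8 of 8 transplanted and 8 of 8 adult cells and in 1 cultured cell. Nnt, the transhydrogenase that makes NADPH at the inner membrane, had 1 count in transplanted, 704 counts in adult and none in cultured cells. It is known to be disrupted in the C57BL/6J mouse strain, and no source used here gives the strain of the stem cell line.

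Of 16 listed partners of the porins and of the adenine nucleotide carrier, 2 were higher and 6 lower of 10 in transplanted over cultured cells, 5 higher and 5 lower of 11 in adult over cultured cells, and 1 higher and 3 lower of 8 in transplanted over adult cells. In the same comparisons 22.5% of all genes were higher and 64.0% lower, 23.0% and 62.1%, and 34.8% and 44.3%, so the 6 of 10 lower in the first lay near the background. The median log2 ratios were -1.93, 1.13 and -0.26. The first was 0.75 without cultured cell F, the second -0.53 without adult cell C, and the third ran from -2.11 to -0.04 with 1 cell left out. The lower genes of the first comparison included Hk1, Hk2, Mcl1, Ak4 and Gk, and none of the 6 lower calls held without every single cell in turn. Of the lower calls over all genes in that comparison, 32.8% held. Ckmt2, the mitochondrial creatine kinase of striated muscle, had 1624, 3598 and 6280.0 CPM in the lowest, median and highest transplanted cell, 65.1, 1067 and 10650 CPM in adult cells and no count in cultured cells. It was at least 244-fold higher in transplanted and at least 157-fold higher in adult than in cultured cells, the second at least 103-fold without adult cell F. Hk2, the hexokinase that docks on porin, had 21 counts in 1 transplanted cell, 402 counts in 6 adult cells and 8 counts in 2 cultured cells. Its transplanted sum was 19.6-fold lower than the adult one (12.7 to 32.0), and at least 127-fold lower without transplanted cell G. Ldha, lactate dehydrogenase A, had 1335 CPM in transplanted, 1189 CPM in adult and 543 CPM in cultured cells.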

How the data were processed

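The authors deposited raw read counts, whole numbers for 9595 genes in 24 cells. Per the submitters' processing notes, TopHat2 2.1.0, HTSeq and DESeq2 were used with build mm10, also for rat cells. No source used here states the annotation or the strand setting. Groups followed the sample titles. Letters A to H name cells and pair nothing. Every pair of cells within a group differed beyond sampling noise, with a chi-square per degree of freedom of at least 54.6 in transplanted, 44.3 in adult and 13.6 in cultured cells.

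Counts were summed over the 8 cells of a group and divided by the group's total (CPM). CPM intervals are exact Poisson, ratio intervals exact conditional binomial and share intervals Clopper-Pearson, all at 95%. Where a group had 0 counts, 3 counts over the group served as its floor (2.30 CPM in transplanted, 2.36 CPM in adult, 14.6 CPM in cultured cells) and the ratio is a bound against that floor only. It is not a 95% limit, since the exact interval for 0 counts reaches 2.83, 2.90 and 17.9 CPM in these groups. A call needs a ratio of 2 either way and at least 10 counts over both groups. No p-value was computed, because cells are not replicates. Median log2 ratios used a pseudocount of 1 CPM. Genes described in full have at least 100.0 CPM in a group with counts in at least 4 of its 8 cells, plus Slc25a3, Slc25a4, Slc25a5 and the porins always, which gave 17. Each of the 17 reached that level in transplanted or adult cells. The choice thus favours genes that are higher there than in cultured cells, and the 17 do not stand for all 59. For each of the 4 partner lists the 3 genes of highest CPM are described. Values of some of these genes are not reported here. The members and lists were chosen with earlier results of these data known. Exon lengths, over the union of exons, were taken from GENCODE M21 (59 of 59 symbols matched), promoters from RefSeq on GRCm38.p6. Alternatives were TMM factors (edgeR 4.0.16), DESeq2 1.42.0 size factors, totals without Rn45s, Rpph1 and Ttn, equal cell weights, other count minimums, pseudocounts and fold limits, and leaving out each cell. The calculation was tested on simulated data. Python 3.11.15, scipy 1.17.1, pandas 2.3.3 and R 4.3.3 were used.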

Additional observations from a re-analysis of the deposited data

Results flagged for a closer look

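Within each group of 8 cells, or of those cells with enough counts for a share, 71 sets of values were checked for a cell far from the rest, and 23 were flagged, each time for the highest cell. Chance alone flags about 1 in 20 sets of normally distributed values, and values with many cells at 0 are not of that kind. The cause of these values was not tested. Among transplanted cells, cell A stood apart in Slc25a11 (1613 CPM), cell B in Vdac1 (2013 CPM, and 64.9% of its porin counts) and Timm44 (2166 CPM), cell C in Timm8b (4313 CPM), cell D in Timm10 (857 CPM) and cell F in Tomm6 (1328 CPM). Among adult cells, cell A stood apart in Timm22 (3249 CPM), Timm44 (2293 CPM) and Tomm5 (1908 CPM), cell B in Vdac1 (1946 CPM) and cell D in Timm17a (2904 CPM). Adult cell H stood apart in Slc25a3 (3536 CPM), in Timm10b (786 CPM) and in the share of Vdac3 among its porin counts (79.3%). Among cultured cells, cell A stood apart in Slc25a11 (202 CPM), Tomm5 (404 CPM) and Vdac2 (505 CPM), and cell H in Timm13 (1800.0 CPM). Cultured cell G stood apart in Slc25a5 (1853 CPM), Timm8b (3265 CPM), Tomm6 (838 CPM) and in the share of its counts held by import genes (0.865%).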

How the results depend on the processing

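The number of the 59 genes called lower in transplanted over cultured cells was 24 with a minimum of 1 count and 6 with a minimum of 30 counts, against 14, and in adult over cultured cells 21 and 7, against 12. The median log2 ratio for transplanted over cultured cells was -0.71 with a minimum of 1 count, against 0.72, where the added genes have few counts and are mostly at 0 in transplanted cells. With 1 cell left out in turn it ran from -0.31 to 2.23, and for transplanted over adult cells from -0.92 to 0.00. Lower calls in adult over cultured cells ran from 7 (without cultured cell G) to 12, and higher calls in transplanted over adult cells from 5 to 10 (without adult cell H). Without Slc25a3, Slc25a4 and Slc25a5 the 59 genes' share was 0.622% in transplanted and 0.736% in adult cells, and that of carriers 0.0559% and 0.0702%. Counting a gene as detected from 5 counts gave a median of 3.0 in cultured cells, against 9.5. With 1 cell left out in turn, transplanted over adult ratios ran from 0.186 to 57.6 for Timm22, from 0.00514 to 1.85 for Timm44 and from 0.284 to 1.16 for Tomm5, the highest each time without adult cell A. TMM factors moved every ratio to cultured cells by 0.92 on the log2 scale and DESeq2 size factors by 0.22 for transplanted and 0.14 for adult cells, and totals without Rn45s, Rpph1 and Ttn by -0.20 for both, alike for the 59 genes and all genes, so their medians moved by about the same amount. Among the named ratios that passed or missed 2-fold, TMM factors brought past it Vdac1 (3.23) and Tomm6 (2.52) for transplanted over cultured cells and Timm8b (3.44) and Vdac3 (2.42) for adult over cultured cells. Totals without those 3 genes took Timm8b below it for transplanted over cultured cells (1.93). Equal cell weights brought Vdac1 (2.63, transplanted over cultured) and Timm10b (2.70, transplanted over adult) past it and took Timm44 (0.747) and Tomm5 (0.564), both transplanted over adult, out of it, and DESeq2 size factors brought Timm10b past it (2.01). Where no cause is stated, the cause was not tested. No paired analysis was possible because the letters only name cells and no result comes from a test. At 14.6 CPM, the cultured floor limits what can be called lower in cultured cells. A gene absent there may stand above that floor, since the exact interval for 0 counts reaches 17.9 CPM.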
